A study of Homo sapiens with 6 samples.

Results

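The genes described here are 36 enzymes and enzyme regulators of glycolysis, pyruvate handling and glycogen metabolism, chosen by symbol and found as 36 of the 20020 genes in the count table. They cover the steps from hexokinase to lactate dehydrogenase, the bifunctional PFKFB regulators, the pyruvate dehydrogenase complex with its kinases and a phosphatase, 2 gluconeogenic enzymes and 6 enzymes of glycogen turnover. The study measured polyA RNA by sequencing in 786-O, a human cell line from a clear cell renal carcinoma, kept in RPMI1640 with serum. Of its 6 samples, 3 carry the genotype label puro, which the labels do not explain further and which served as the control here, and 3 carry the label shIGF2BP2, a short hairpin RNA against the m6A-binding RNA-binding protein IGF2BP2. The count table holds 9 columns. Names of the shIGF2BP2 columns hold 2 numbers, and the last was read as the replicate, a reading that no label states. On that reading each shIGF2BP2 sample has 2 columns. They are told apart by the first number, 2 or 3, and are called set 2 and set 3 here, with 3 replicates in each arm. No label says what the first number stands for, for example which hairpin, clone or library, nor whether the replicates came from separate cultures. The p-values below therefore measure the spread between these columns only, which may be technical.

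Glycolysis splits glucose into pyruvate, and its enzymes exist in isoforms encoded by separate genes. Phosphofructokinase is the committed step and is activated by fructose-2,6-bisphosphate, which the PFKFB enzymes make and degrade. Pyruvate is then reduced to lactate by lactate dehydrogenase or oxidized by the pyruvate dehydrogenase complex, which PDK kinases switch off and PDP phosphatases switch on. Glycogen synthase and the branching enzyme build glycogen, and glycogen phosphorylase breaks it down. 786-O cells lack a working VHL protein, which in other cells marks hypoxia-inducible factors for destruction, and many genes of this pathway are known targets of those factors.

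The columns held 33821216 to 47470019 counts, and their TMM scaling factors lay between 0.958 and 1.06. Pearson correlations of log expression were 0.998 to 0.999 within an arm and 0.987 to 0.989 between arms. All 8 markers of renal carcinoma cells examined had a mean of at least 1 FPKM in every arm, but they were not steady. PAX8 had log2 changes of -0.20 in set 2 (adjusted p = 0.0123) and -1.17 in set 3 (adjusted p = 6.01e-14), CDH6 of -1.13 and -1.23, CA12 of -0.92 and -1.59, NNMT of -0.86 and 0.29, and LHX1 of -0.23 and -0.41. EPAS1, which encodes the hypoxia-inducible factor HIF-2α, was at -0.37 (adjusted p = 1.33e-05) and -0.56 (adjusted p = 1.64e-08), while PAX2 was at 0.40 and 0.82 and VIM at 0.36 and 0.42. The part of these marker changes in the enzyme results was not tested. Summed levels of the 5 fibroblast markers stayed at or below 1.76 FPKM, of the 4 endothelial markers at or below 0.382 FPKM and of the 4 erythroid markers at or below 0.485 FPKM. The 5 immune markers summed to between 25.0 and 26.6 FPKM in set 2, against 13.5 to 13.9 for puro and 12.9 to 14.9 for set 3, nearly all of it CD68, with the leukocyte gene PTPRC at or near 0. The part of that CD68 difference in the set 2 results was not tested. IGF2BP2 itself read 16.6, 17.1 and 17.5 FPKM in puro, 6.02, 5.61 and 5.46 in set 2, and 7.47, 6.77 and 7.82 in set 3. Its log2 change against puro was -1.68 (SE 0.08, adjusted p = 2.65e-16) in set 2 and -1.19 (SE 0.07, adjusted p = 2.24e-13) in set 3, so the targeted transcript was lower in all 6 shIGF2BP2 columns.

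Levels are given as FPKM, fragments per kilobase scaled for library size, which allow genes of different length to be compared as far as the lengths used hold. Fold changes come from counts scaled by TMM in a single edgeR quasi-likelihood fit of the 9 columns, and adjusted p-values are Benjamini-Hochberg values over all 13346 genes tested, called at 0.05 with no minimum fold. The scales are not interchangeable: a fit of log2(FPKM + 0.1) moved the median gene by 0.09 log2 in set 2 against puro and by -0.11 in set 3 against set 2, so FPKM ratios of set 2 run a little above the fitted ratios. The comparisons of set 2 and of set 3 with puro share the same 3 puro columns. RNA of a whole culture does not tell less RNA per cell from fewer cells expressing a gene.

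Several of these genes were among the most abundant transcripts of the cells. By mean FPKM in puro, GAPDH ranked 4, ENO1 13, PKM 21, PGAM1 50, LDHA 52 and TPI1 68 of 20020 genes, and PFKP and PGK1 followed at 198 and 205. At the other end, the gluconeogenic FBP1 had 1 count in all 9 columns together and was not tested. The remaining 35 genes passed the filter on low counts. All 36 together took 2.33% ± 0.0661 (SD, n = 3) of the counts in puro, 1.59% ± 0.0271 in set 2 and 2.24% ± 0.0309 in set 3. Every set 2 column lay below every puro and every set 3 column, for which the two-sided exact permutation p was 0.1 in each comparison, the smallest that 3 against 3 columns allow. Set 3 overlapped puro (exact permutation p = 0.2).

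Against puro, set 2 showed 22 of the 35 tested genes lower and 3 higher, while 10 were not called. Among all genes tested, 29.9% were called lower and 30.0% higher in that comparison. The shares of these enzymes were 62.9% lower and 8.57% higher, and their median log2 change was -0.31, against 0.0060 for all genes. Set 3 against puro had 13 lower, 5 higher and 17 not called, or 37.1% and 14.3%, where 27.6% and 28.0% of all genes were called lower and higher. The median was -0.12, against 0.0040 for all genes. Without puro replicate 2 the number called higher in set 3 was 3, as GAPDH (adjusted p = 0.11) and LDHB (adjusted p = 0.106) were no longer called. The share of all genes called in that fit is not given here. Across the 35 genes, Spearman's rho between the gene length implied by counts and FPKM and the log2 change was 0.362 in set 2 and -0.161 in set 3, against 0.0418 and -0.0533 over all genes. With a length trend over all genes removed, the medians were -0.33 and -0.07.

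Set 2 and set 3 were also compared with each other, in the same fit, where the puro columns enter only through the shared filter, scaling and spread. In set 3 against set 2, 13 of the 35 genes were higher, 6 were lower and 16 were not called, or 37.1% and 17.1%, where 29.8% of all genes were called higher and 30.8% lower. The median log2 difference was 0.10, against -0.022 for all genes. The 13 higher genes were HK1, GPI, PFKL, PFKM, PFKFB3, TPI1, GAPDH, PGAM1, ENO1, LDHA, LDHB, PDHB and PDP1. The 6 lower ones were PFKFB2, PDK1, PDHA1, UGP2, GYS1 and GBE1.

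**Figure D1:**
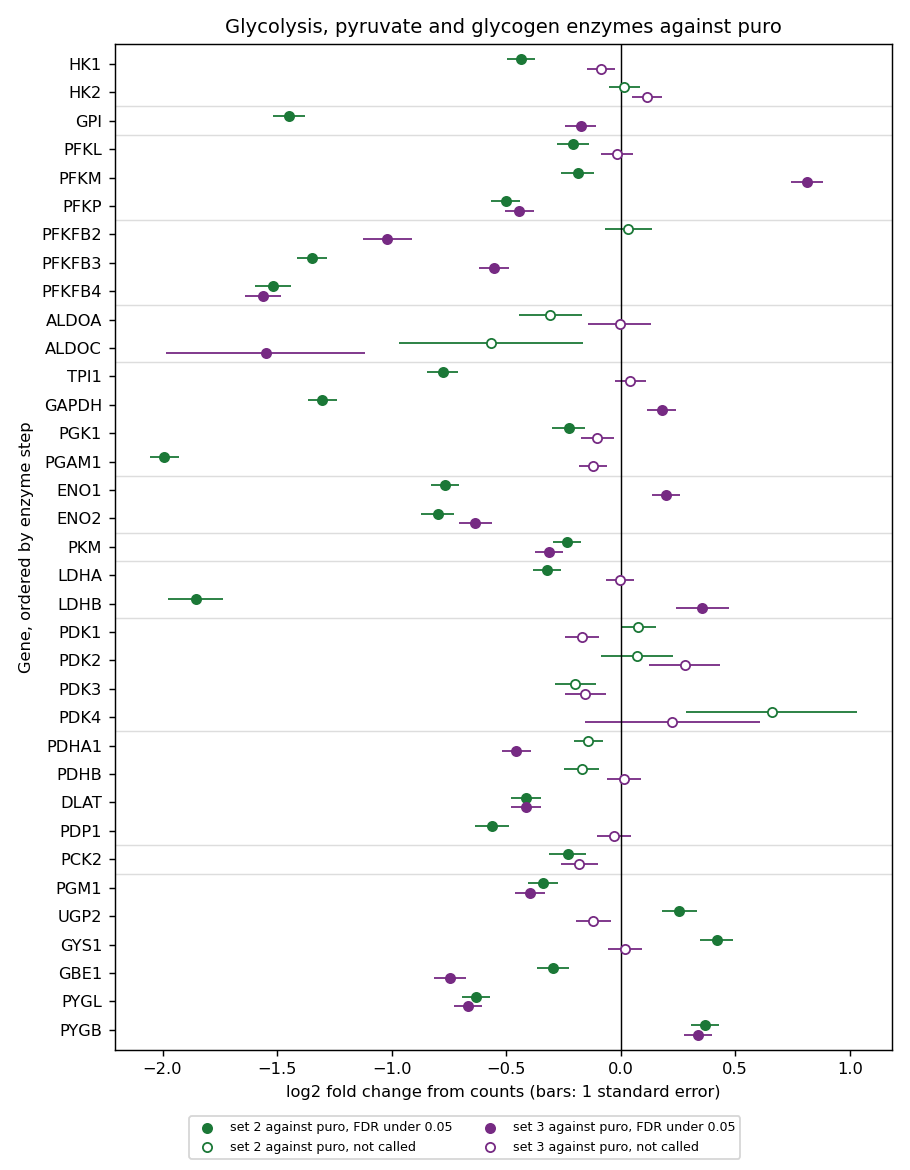
Log2 fold change (x axis, from TMM-scaled counts, bars 1 standard error) of the 35 tested enzymes (y axis, ordered by step) in set 2 (green) and set 3 (purple) against the same 3 puro columns; filled points passed FDR 0.05. Most green points lie left of 0, with PGAM1 at -1.99, while in set 3 GPI, TPI1, GAPDH, PGAM1, ENO1 and LDHB lie between -0.18 and 0.36.

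Hexokinase traps glucose in the cell as glucose-6-phosphate, and the isoforms HK1 and HK2 are described first. HK1 read 49.8, 51.4 and 51.3 FPKM in puro, 41.9, 40.2 and 38.6 in set 2, and 43.8, 48.4 and 48.9 in set 3. All 3 set 2 columns were below all puro columns, and HK1 fell to 74.0% of puro (log2 -0.44, SE 0.06, adjusted p = 1.17e-06). In set 3 the change of -0.09 did not pass the test (adjusted p = 0.254). HK2, the isoform typical of insulin-sensitive tissue and of many tumours, ranged from 21.4 to 25.3 FPKM over the 9 columns, with log2 changes of 0.02 (adjusted p = 0.851) and 0.11 (adjusted p = 0.149). The HK2 change in set 3 passed the test once set 3 replicate 1 was left out (log2 0.15, adjusted p = 0.0384). HK2 supplied 30.2% ± 0.725 (SD, n = 3) of the summed FPKM of HK1 and HK2 in puro, 37.1% ± 0.523 in set 2 and 33.2% ± 0.686 in set 3. Here and for the other steps, shares are taken over the isoforms among the 36 genes only, and HKDC1, at a mean of 10.5 FPKM in puro, is outside this sum.

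GPI interconverts glucose-6-phosphate and fructose-6-phosphate and is the only gene of its step. Its levels were 50.1, 48.2 and 48.1 FPKM in puro, 19.2, 20.01 and 18.3 in set 2, and 38.2, 43.4 and 45.7 in set 3. The arms did not overlap, and set 2 was far below both others. GPI fell to 36.7% of puro in set 2 (log2 -1.45, SE 0.07, adjusted p = 7.01e-16). The set 3 change was log2 -0.18 (SE 0.07, adjusted p = 0.0275), and 3 single columns each decided that call. Its adjusted p was 0.0817 without puro replicate 1, 0.0606 without puro replicate 3 and, at a log2 change of -0.11, 0.122 without set 3 replicate 1. Set 3 exceeded set 2 by log2 1.27 (SE 0.07, adjusted p = 8.41e-15).

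Phosphofructokinase, the committed step, was made up mostly of the platelet isoform PFKP. PFKP read 238, 221 and 227 FPKM in puro, 180, 173 and 165 in set 2, and 152, 171 and 172 in set 3. Both sets lay below puro and overlapped each other. PFKP fell by log2 0.50 in set 2 (SE 0.06, adjusted p = 1.32e-07) and by 0.44 in set 3 (SE 0.06, adjusted p = 1.15e-06), and the sets differed by 0.06 (adjusted p = 0.44).

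The muscle isoform PFKM had a different pattern. It stood at 10.7, 10.8 and 10.8 FPKM in puro, 11.1, 9.83 and 9.39 in set 2, and 18.4, 18.3 and 18.8 in set 3. All set 3 columns were above all others, and PFKM rose to 176% of puro there (log2 0.81, SE 0.07, adjusted p = 1.87e-10). Set 3 exceeded set 2 by log2 1.00 (SE 0.07, adjusted p = 2.51e-12). The set 2 decrease of 0.19 on the log2 scale (adjusted p = 0.0266) was not called without puro replicate 3 (adjusted p = 0.0727), set 2 replicate 2 (adjusted p = 0.103) or set 2 replicate 3 (adjusted p = 0.147). The liver isoform PFKL ranged from 37.3 to 45.3 FPKM over all columns and fell by 0.21 on the log2 scale in set 2 (SE 0.07, adjusted p = 0.0116). That call was lost without puro replicate 1 (adjusted p = 0.0681) or set 2 replicate 3 (adjusted p = 0.0631). PFKL in set 3 was at log2 -0.02 (adjusted p = 0.864). Its difference between the sets, 0.19 (adjusted p = 0.0186), had an adjusted p of 0.0872 without set 2 replicate 3, 0.104 without set 3 replicate 2 and 0.0627 without set 3 replicate 3.

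Summed over isoforms, phosphofructokinase FPKM was 282 ± 10.8 (SD, n = 3) in puro, 222 ± 9.72 in set 2 and 225 ± 14.7 in set 3. The sum was lower than puro in both sets without overlap (exact permutation p = 0.1 each). PFKM supplied 3.81% ± 0.168 of the sum in puro, 4.54% ± 0.215 in set 2 and 8.26% ± 0.517 in set 3, and PFKP supplied 81.1%, 77.7% and 73.4%.

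The PFKFB enzymes set the level of fructose-2,6-bisphosphate, and PFKFB4 had the lowest set 3 ratio to puro of the 35 tested enzymes. PFKFB4, known as a hypoxia-inducible isoform, read 33.5, 32.2 and 27.4 FPKM in puro, 12.3, 11.95 and 10.5 in set 2, and 10.4, 10.0 and 10.5 in set 3. Every shIGF2BP2 column was far below the lowest puro column. PFKFB4 fell to 34.9% of puro in set 2 (log2 -1.52, SE 0.08, adjusted p = 4.55e-15) and to 33.9% in set 3 (log2 -1.56, SE 0.08, adjusted p = 3.38e-15), and the sets differed by -0.04 (adjusted p = 0.665). PFKFB3, the isoform with the highest kinase over phosphatase activity, read 59.1, 59.4 and 57.1 FPKM in puro, 24.9, 24.7 and 24.1 in set 2, and 35.2, 39.95 and 42.4 in set 3. The 3 arms did not overlap, with set 3 between the others. PFKFB3 fell to 39.3% of puro in set 2 (log2 -1.35, SE 0.07, adjusted p = 1.52e-15) and to 68.2% in set 3 (log2 -0.55, SE 0.07, adjusted p = 5.04e-08), a difference of 0.80 (SE 0.07, adjusted p = 5.18e-11).

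PFKFB2, the heart isoform, was the least expressed of the 3 and moved the other way between sets. It read 1.91, 2.18 and 1.95 FPKM in puro, 2.44, 2.10 and 2.07 in set 2, and 0.979, 1.06 and 0.885 in set 3. Set 3 lay below all other columns, at 49.4% of puro (log2 -1.02, SE 0.11, adjusted p = 5.24e-09), while the set 2 change was 0.03 (SE 0.10, adjusted p = 0.791). The PFKFB sum was 91.6 ± 4.46 FPKM (SD, n = 3) in puro, 38.4 ± 1.48 in set 2 and 50.5 ± 3.62 in set 3. PFKFB3 supplied 64.0% ± 1.84 of it in puro, 64.1% ± 1.44 in set 2 and 77.5% ± 1.74 in set 3.

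Promoter windows are shown for the 4 enzymes that passed the test with a log2 change below -0.5 against puro in set 2 and in set 3, PFKFB3, PFKFB4, ENO2 and PYGL. They come from RefSeq on GRCh38.p14 and each cover 300 bases around the start of transcription, most of them upstream, 5′ to 3′ on the gene's strand. Capitals mark the words ACGTG and GCGTG on either strand, the core of the hypoxia response element, where CACGC and CACGT are the same words read from the other strand. The PFKFB3 window is the second of 2 for that gene, at chr10:6202682-6202981 on the plus strand. PFKFB4 lies at chr3:48556754-48557053 on the minus strand, ENO2 at chr12:6914330-6914629 on the plus strand and PYGL at chr14:50944434-50944733 on the minus strand.
PFKFB3: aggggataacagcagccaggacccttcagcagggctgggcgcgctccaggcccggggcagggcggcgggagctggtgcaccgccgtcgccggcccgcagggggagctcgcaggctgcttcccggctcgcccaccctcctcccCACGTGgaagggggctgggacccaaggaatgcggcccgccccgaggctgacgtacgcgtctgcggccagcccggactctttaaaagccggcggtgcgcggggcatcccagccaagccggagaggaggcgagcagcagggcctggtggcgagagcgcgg
PFKFB4: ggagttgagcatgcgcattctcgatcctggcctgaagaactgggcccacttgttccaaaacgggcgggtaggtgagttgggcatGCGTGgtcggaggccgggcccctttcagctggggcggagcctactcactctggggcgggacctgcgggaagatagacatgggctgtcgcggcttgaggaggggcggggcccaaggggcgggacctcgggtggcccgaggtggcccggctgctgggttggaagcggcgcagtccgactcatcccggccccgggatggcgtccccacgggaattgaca
ENO2: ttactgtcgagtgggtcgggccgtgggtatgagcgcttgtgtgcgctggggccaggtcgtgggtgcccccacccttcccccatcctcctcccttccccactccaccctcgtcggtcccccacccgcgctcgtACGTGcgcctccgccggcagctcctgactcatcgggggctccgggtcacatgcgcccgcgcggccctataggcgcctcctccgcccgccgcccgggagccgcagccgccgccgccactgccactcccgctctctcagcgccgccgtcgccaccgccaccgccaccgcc
PYGL: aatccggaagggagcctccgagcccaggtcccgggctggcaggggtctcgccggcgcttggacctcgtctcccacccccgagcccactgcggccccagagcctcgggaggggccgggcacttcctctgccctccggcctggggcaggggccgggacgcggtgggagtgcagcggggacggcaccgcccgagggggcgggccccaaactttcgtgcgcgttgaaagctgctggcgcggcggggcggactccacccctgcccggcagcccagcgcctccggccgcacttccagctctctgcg
In these windows PFKFB3 has the palindrome CACGTG, which holds ACGTG on both strands, 108 bases before the start. CACGTG is also the E-box word, and the letters do not tell the 2 kinds of site apart. The first PFKFB3 window, not shown, has GCGTG at 168 bases before the start. PFKFB4 has GCGTG at 166 bases and ENO2 has ACGTG at 118 bases before the start, and the PYGL window has neither word.

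Across the pathway, 34 of the 36 genes had a window, 61 in all, since 12 genes had several, and PDP1 and PFKFB2 had none. The word ACGTG was found on either strand in 24 of the 61 windows, or 39.3%, against 25.0% of the 15846 windows of all genes tested. GCGTG was in 45.9% against 47.5%, and CACGTG, every copy of which contains ACGTG, in 13.1% against 9.11%. The first LDHA window held 5 readings of ACGTG on its 2 strands, at 73 to 185 bases before the start. These matches describe letters only and were not tied to any measured binding.

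Aldolase splits fructose-1,6-bisphosphate. ALDOA read only 4.72, 3.73 and 4.20 FPKM in puro, 4.09, 3.41 and 3.46 in set 2, and 3.27, 4.16 and 4.94 in set 3. All 3 arms overlapped. In GENCODE 29, 42.3% of the ALDOA exon bases are shared on the same strand with the gene AC093512.2, so counts may be split or dropped there and the level is uncertain. Its log2 changes were -0.31 in set 2 (SE 0.14, adjusted p = 0.0566), -0.00 in set 3 (adjusted p = 0.98) and 0.30 between the sets (adjusted p = 0.0577). The set 2 change passed the test without puro replicate 2 (adjusted p = 0.0286), set 2 replicate 1 (0.0328), set 3 replicate 1 (0.0302) or set 3 replicate 3 (0.0441), and the difference between sets passed it without set 2 replicate 1 (0.0329) or set 3 replicate 1 (0.0055).

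ALDOC, the brain aldolase, had only 271 counts over the 9 columns. It read 0.829, 0.429 and 0.739 FPKM in puro, 0.374, 0.551 and 0.52 in set 2, and 0.175, 0.363 and 0.135 in set 3. The set 3 columns were below all puro columns, with a log2 change of -1.55 (SE 0.43, adjusted p = 0.00344). In set 2 the change was -0.56 (SE 0.40, adjusted p = 0.23). The difference between the sets of -0.99 (adjusted p = 0.055) passed the test without puro replicate 2 (adjusted p = 0.048), set 2 replicate 1 (0.0414) or, at a log2 difference of -1.52, set 3 replicate 2 (0.0117).

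Of the 4 enzymes that convert triose phosphates to 2-phosphoglycerate, TPI1, GAPDH and PGAM1 differed between the sets and PGK1 did not pass that test. TPI1, which interconverts the triose phosphates, read 680, 645.5 and 702 FPKM in puro, 379, 453 and 434 in set 2, and 703, 676 and 669 in set 3. Set 2 was below every other column and set 3 overlapped puro. TPI1 fell to 58.4% of puro in set 2 (log2 -0.78, SE 0.07, adjusted p = 1.48e-10), stood at 103% in set 3 (log2 0.04, adjusted p = 0.625), and differed between the sets by 0.82 (SE 0.07, adjusted p = 5.2e-11).

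GAPDH makes 1,3-bisphosphoglycerate and is a common reference gene for quantitative PCR. It read 3063, 2832 and 3060 FPKM in puro, 1223, 1336 and 1325 in set 2, and 3409, 3367 and 3173 in set 3. No arm overlapped another. GAPDH fell to 40.5% of puro in set 2 (log2 -1.30, SE 0.06, adjusted p = 1.27e-15) and stood at 113% in set 3 (log2 0.18, SE 0.06, adjusted p = 0.0169), so that set 3 exceeded set 2 by 1.48 (SE 0.06, adjusted p = 9.35e-17). The set 3 increase was not called without puro replicate 2 (log2 0.14, adjusted p = 0.11) or set 3 replicate 2 (log2 0.17, adjusted p = 0.0558). Nor was it called by limma on log2(FPKM + 1) (adjusted p = 0.121) or log2(FPKM + 0.1) (adjusted p = 0.123), or by edgeR with a replicate block (adjusted p = 0.0502). The annotation names 62 pseudogenes after GAPDH, and how reads matching several places were counted is not given in the sources used here.

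PGK1, the first ATP-producing step, stayed near its puro level. Its values were 215, 208 and 230 FPKM in puro, 186, 200 and 211 in set 2, and 219, 195 and 183 in set 3, and all arms overlapped. The set 2 decrease of 0.23 on the log2 scale (SE 0.07, adjusted p = 0.00795) was not called without puro replicate 3 (adjusted p = 0.0651) or set 2 replicate 1 (adjusted p = 0.0556). In set 3 the change was -0.10 (adjusted p = 0.233), and without set 3 replicate 1 it was -0.18 (adjusted p = 0.0155). The sets differed by 0.12 (adjusted p = 0.136), and by 0.19 without set 3 replicate 3 (adjusted p = 0.0305).

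PGAM1, a phosphoglycerate mutase at chr10:97426160-97433441 on the plus strand of GRCh38, had the lowest set 2 ratio of the 35 tested enzymes. It read 864, 808 and 823 FPKM in puro, 223, 219 and 229 in set 2, and 720, 760 and 773 in set 3. The set 2 columns were far below all others. PGAM1 fell to 25.1% of puro in set 2 (log2 -1.99, SE 0.06, adjusted p = 2.79e-19). In set 3 it stood at 92.0% (log2 -0.12, SE 0.06, adjusted p = 0.0877), although no set 3 column reached a puro column on the FPKM scale. That decrease was called in 2 of 21 alternatives, by DESeq2 (log2 -0.12, adjusted p = 0.0455) and by limma on log2(FPKM + 1) (log2 -0.15, adjusted p = 0.0485). Set 3 exceeded set 2 by log2 1.87 (SE 0.06, adjusted p = 4.49e-19). PGAM4, a retrocopy identical to PGAM1 at 752 of its 765 bases, had log2 changes of -1.85 in set 2 (adjusted p = 3.59e-11) and -0.22 in set 3 (adjusted p = 0.179), and reads of the pair may be shared.

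Enolase makes phosphoenolpyruvate, and its isoforms differed in set 3. ENO1 read 1969, 1879 and 2010 FPKM in puro, 1204, 1228 and 1254 in set 2, and 2183, 2276 and 2136 in set 3. No arm overlapped another. ENO1 fell to 58.8% of puro in set 2 (log2 -0.77, SE 0.06, adjusted p = 1.72e-11) and rose to 115% in set 3 (log2 0.20, SE 0.06, adjusted p = 0.00615), a difference of 0.96 (SE 0.06, adjusted p = 1.79e-13). The set 3 rise was not called by limma on log2(FPKM + 1), at 0.17 with an adjusted p of 0.0544.

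ENO2, the neuron-typical enolase, was a small part of the enolase FPKM. Its levels were 24.5, 23.7 and 22.1 FPKM in puro, 14.2, 14.7 and 14.4 in set 2, and 13.7, 15.4 and 15.4 in set 3. Both sets were below puro without overlap. ENO2 fell by log2 0.80 in set 2 (SE 0.07, adjusted p = 2.59e-10) and by 0.64 in set 3 (SE 0.07, adjusted p = 2.11e-08). The difference between the sets, 0.16 (adjusted p = 0.0506), had an adjusted p of 0.044 without puro replicate 1 and, at 0.21, of 0.0102 without set 3 replicate 1. ENO2 supplied 1.19% ± 0.0873 (SD, n = 3) of the enolase FPKM in puro, 1.16% ± 0.0215 in set 2 and 0.670% ± 0.0458 in set 3.

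PKM, the pyruvate kinase of most tissues and tumours, read 1556, 1463 and 1494 FPKM in puro, 1374, 1387 and 1343 in set 2, and 1094, 1231 and 1247 in set 3. All shIGF2BP2 columns lay below all puro columns. PKM fell by 0.23 on the log2 scale in set 2 (SE 0.06, adjusted p = 0.00161) and by 0.31 in set 3 (SE 0.06, adjusted p = 9.5e-05), with a difference of -0.08 between them (adjusted p = 0.29). On log2(FPKM + 1) with limma, the set 2 change was -0.14 and not called (adjusted p = 0.123). The difference between the sets was called there, at -0.20 (adjusted p = 0.0281), where the median of all genes was -0.08. Gene counts do not separate the splice forms of PKM.

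**Figure D2:**
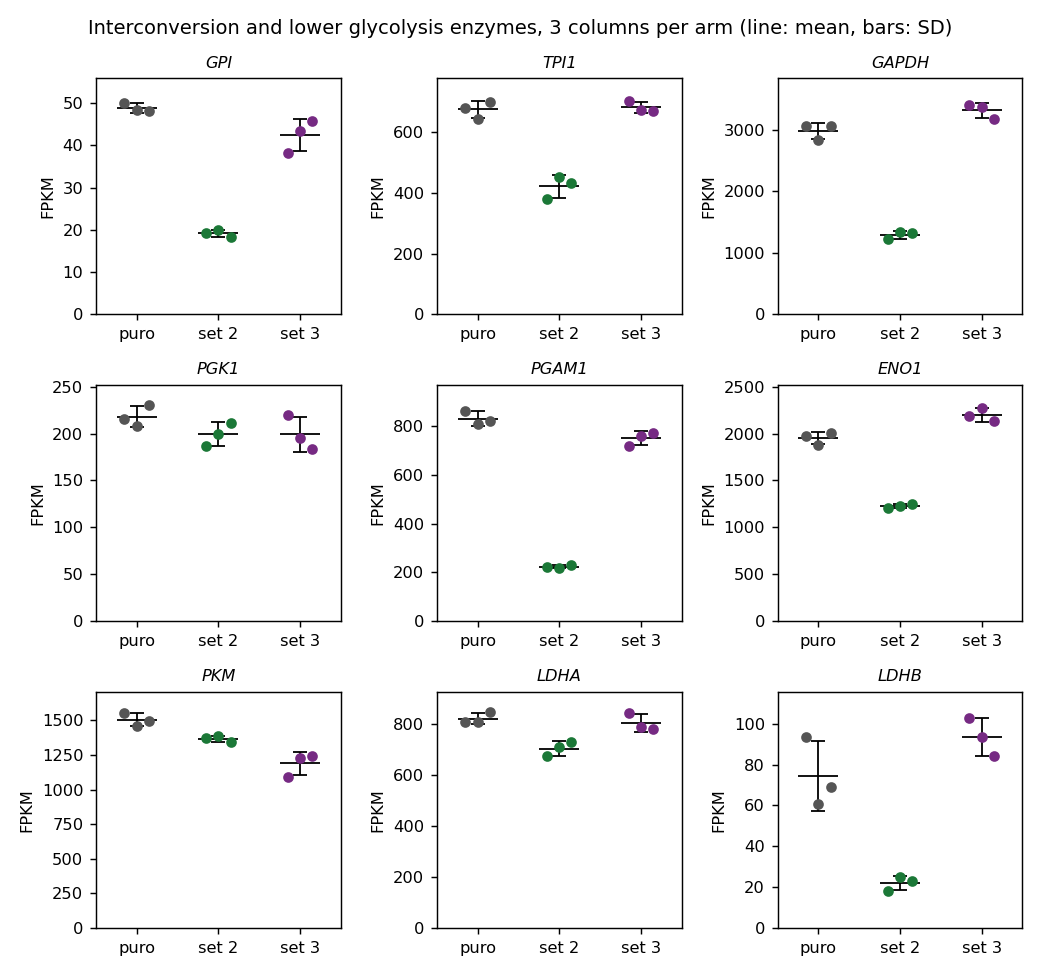
FPKM (y axis, from 0) of 9 enzymes from GPI to lactate dehydrogenase in puro, set 2 and set 3 (x axis), with a point for each column, a line at the mean and bars of 1 SD (n = 3). Set 2 lies below both other arms for GPI, TPI1, GAPDH, PGAM1, ENO1 and LDHB, while PGK1 overlaps between arms.

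Lactate dehydrogenase reduces pyruvate to lactate, and both of its subunit genes were measured. LDHA, the muscle-type subunit, read 809, 809 and 849 FPKM in puro, 675, 709 and 730 in set 2, and 843, 789 and 780 in set 3. Set 2 was below the other arms and set 3 overlapped puro. LDHA fell to 80.1% of puro in set 2 (log2 -0.32, SE 0.06, adjusted p = 6.42e-05), and its set 3 change was -0.00 (SE 0.06, adjusted p = 0.96). The sets differed by 0.32 (SE 0.06, adjusted p = 7.26e-05).

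LDHB, the heart-type subunit, gave the widest difference between the sets among the 35 genes. It read 93.4, 60.5 and 68.9 FPKM in puro, 18.2, 25.0 and 22.8 in set 2, and 103, 93.4 and 84.0 in set 3. Set 2 was well below all other columns, while puro spread widely and overlapped set 3. LDHB fell to 27.6% of puro in set 2 (log2 -1.86, SE 0.12, adjusted p = 4.07e-13) and was 4.63 times as high in set 3 as in set 2 (log2 2.21, SE 0.12, adjusted p = 1.26e-14). The set 3 increase over puro of 0.36 (SE 0.11, adjusted p = 0.0095) was not called without puro replicate 2 (log2 0.23, adjusted p = 0.106), without puro replicate 3 (log2 0.31, adjusted p = 0.0512) or by DESeq2 (adjusted p = 0.119). In GENCODE 29, 33.4% of the LDHB exon bases are shared on the same strand with AC010197.2. LDHB supplied 8.28% ± 1.82 (SD, n = 3) of the lactate dehydrogenase FPKM in puro, 3.02% ± 0.389 in set 2 and 10.4% ± 0.596 in set 3.

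Of the 4 PDK kinases, which inactivate pyruvate dehydrogenase, edgeR called 0 against puro in either set, with 1 in each set at an unadjusted p under 0.05. Of all genes tested, 30.0% were called higher and 29.9% lower in set 2, and 28.0% and 27.6% in set 3. With only 4 genes, the count is no result about the kinases as a group. DESeq2 called PDK3 in set 2 and PDK1 in set 3. All 4 were low in FPKM, with a sum of 5.18 ± 0.202 (SD, n = 3) in puro, 5.64 ± 0.200 in set 2 and 4.93 ± 0.236 in set 3. The gene lengths implied by counts and FPKM were long for PDK1, at 14215 bases, and PDK3, at 13074, which lowers their FPKM. PDK1 had 1109 to 1629 counts per column. PDK1, a known target of hypoxia-inducible factors, read 2.21, 2.31 and 2.26 FPKM in puro, 2.57, 2.59 and 2.496 in set 2, and 2.03, 1.89 and 2.00 in set 3. The arms did not overlap on this scale, but the fitted log2 changes were only 0.08 in set 2 (adjusted p = 0.38) and -0.17 in set 3 (adjusted p = 0.061). Set 3 was lower than set 2 by 0.25 (log2 -0.25, SE 0.07, adjusted p = 0.00608), and without set 3 replicate 1 the set 3 change against puro was -0.19 (adjusted p = 0.0378).

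PDK3 had log2 changes of -0.20 in set 2 (adjusted p = 0.0602) and -0.15 in set 3 (adjusted p = 0.151). The set 2 change passed the test without puro replicate 1 (log2 -0.25, adjusted p = 0.0363) or set 3 replicate 1 (adjusted p = 0.0459). PDK2 stood at 0.07 (adjusted p = 0.716) and 0.28 (adjusted p = 0.133), and 38.6% of its exon bases lie opposite SAMD14. PDK4 had 373 counts in all, with changes of 0.66 in set 2 (SE 0.37, adjusted p = 0.131) and 0.23 in set 3 (adjusted p = 0.641), and its set 2 value was 1.00 without puro replicate 2 (adjusted p = 0.0418).

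The pyruvate dehydrogenase complex feeds pyruvate into the citric acid cycle, and its subunits did not move alike. PDHA1, the catalytic alpha subunit that the kinases phosphorylate, read 37.6, 34.9 and 36.8 FPKM in puro, 36.01, 34.5 and 35.5 in set 2, and 26.1, 26.3 and 25.8 in set 3. All set 3 columns lay below all others, with a log2 change of -0.46 against puro (SE 0.06, adjusted p = 8.93e-07) and of -0.31 against set 2 (SE 0.06, adjusted p = 0.000128). The set 2 change of -0.14 (adjusted p = 0.0563) passed the test without puro replicate 2 (log2 -0.18, adjusted p = 0.0328) or set 3 replicate 1 (adjusted p = 0.0277). MAP3K15 lies opposite 21.3% of the PDHA1 exon bases, and the strand setting of the counts is not given in the sources used here.

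PDHB, the beta subunit, read 38.2, 39.9 and 41.4 FPKM in puro, 38.0, 36.1 and 39.7 in set 2, and 43.5, 37.9 and 37.1 in set 3. The arms overlapped throughout. Its log2 changes were -0.17 in set 2 (adjusted p = 0.055) and 0.01 in set 3 (adjusted p = 0.89). The set 2 change passed the test without puro replicate 1 (adjusted p = 0.0422), set 2 replicate 3 (0.0457), set 3 replicate 1 (0.0201) or set 3 replicate 3 (0.0476). The difference between sets of 0.18 (adjusted p = 0.037) did not pass it without set 2 replicate 1 (adjusted p = 0.0765), set 2 replicate 2 (0.16) or, at 0.10, set 3 replicate 1 (0.206).

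DLAT, the acetyltransferase core subunit, read 23.96, 25.4 and 25.2 FPKM in puro, 19.7, 20.4 and 19.8 in set 2, and 18.7, 17.9 and 18.4 in set 3. Both sets were below puro without overlap. DLAT fell by 0.41 on the log2 scale in set 2 (SE 0.06, adjusted p = 3.88e-06) and in set 3 (SE 0.06, adjusted p = 4.4e-06). The difference between the sets was 0.00 (SE 0.06, adjusted p = 0.993). PDP1, a phosphatase that reactivates the complex, read 18.7, 22.02 and 20.9 FPKM in puro, 15.2, 14.0 and 15.4 in set 2, and 21.1, 18.5 and 19.6 in set 3. Set 2 was below all other columns, and set 3 overlapped puro. PDP1 fell by 0.56 on the log2 scale in set 2 (SE 0.07, adjusted p = 3.11e-07), stood at -0.03 in set 3 (adjusted p = 0.759) and differed between the sets by 0.53 (SE 0.07, adjusted p = 6.82e-07).

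Of the gluconeogenic pair, FBP1, which undoes the phosphofructokinase step and is known to be low in clear cell renal carcinoma, had counts of 0 in 8 columns and 1 in set 3 replicate 3. No direction can be read from these counts. PCK2, the mitochondrial phosphoenolpyruvate carboxykinase, read 10.6, 9.87 and 10.1 FPKM in puro, 9.95, 8.63 and 9.32 in set 2, and 8.29, 8.76 and 9.43 in set 3. Set 2 overlapped puro, whereas set 3 did not. Its log2 change of -0.23 in set 2 (SE 0.08, adjusted p = 0.0168) was not called without puro replicate 1 (adjusted p = 0.0638) or set 2 replicate 2 (adjusted p = 0.113). In set 3 the change was -0.18 (adjusted p = 0.0628), and without set 3 replicate 3 it was -0.22 (adjusted p = 0.0449).

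Among the glycogen enzymes, the phosphorylase isoforms moved in opposite directions. PYGL, the liver glycogen phosphorylase, read 84.5, 80.6 and 86.0 FPKM in puro, 57.9, 59.4 and 56.4 in set 2, and 51.2, 50.8 and 53.4 in set 3. Both sets were below puro without overlap. PYGL fell to 64.6% of puro in set 2 (log2 -0.63, SE 0.06, adjusted p = 1.18e-09) and to 63.1% in set 3 (log2 -0.67, SE 0.06, adjusted p = 5.03e-10).

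PYGB, the brain isoform that degrades the same polymer, went the other way. It read 63.8, 63.1 and 63.6 FPKM in puro, 90.3, 85.6 and 87.3 in set 2, and 74.8, 82.3 and 79.1 in set 3. Every shIGF2BP2 column exceeded every puro column. PYGB rose to 129% of puro in set 2 (log2 0.37, SE 0.06, adjusted p = 8.64e-06) and to 126% in set 3 (log2 0.34, SE 0.06, adjusted p = 3.24e-05). The share of PYGL in the phosphorylase FPKM was 56.8% ± 0.711 (SD, n = 3) in puro, 39.8% ± 1.04 in set 2 and 39.7% ± 1.35 in set 3 (exact permutation p = 0.1 for each set against puro). The sum of both was 147 ± 3.09, 146 ± 2.34 and 131 ± 3.89 FPKM.

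On the synthetic side, GBE1, the branching enzyme, read 33.4, 34.1 and 33.4 FPKM in puro, 30.2, 27.2 and 30.6 in set 2, and 20.7, 19.5 and 18.8 in set 3. The arms did not overlap, with set 3 the lowest. GBE1 fell by 0.29 on the log2 scale in set 2 (SE 0.07, adjusted p = 0.000689) and by 0.75 in set 3 (SE 0.07, adjusted p = 8.58e-10), and set 3 was at -0.45 against set 2 (SE 0.07, adjusted p = 3.63e-06). PGM1, which links glucose-6-phosphate and glucose-1-phosphate, fell by 0.34 in set 2 (SE 0.07, adjusted p = 6.31e-05) and by 0.39 in set 3 (SE 0.07, adjusted p = 1.06e-05).

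GYS1, the glycogen synthase of muscle and most other tissues, read 13.1, 12.9 and 12.6 FPKM in puro, 18.8, 17.9 and 18.6 in set 2, and 11.4, 13.2 and 13.8 in set 3. Only set 2 stood apart, where GYS1 rose by log2 0.42 (SE 0.07, adjusted p = 2.21e-05). Set 3 was at 0.02 against puro (adjusted p = 0.838) and at -0.40 against set 2 (SE 0.07, adjusted p = 3.78e-05). UGP2, which makes the UDP-glucose that the synthase uses, read 30.8, 33.9 and 33.5 FPKM in puro, 39.4, 40.9 and 45.2 in set 2, and 32.4, 29.5 and 26.9 in set 3. It rose by log2 0.26 in set 2 (SE 0.08, adjusted p = 0.00578), a call that was lost without set 2 replicate 3 (log2 0.19, adjusted p = 0.0609). In set 3 UGP2 stood at -0.12 (adjusted p = 0.198), and at -0.19 without set 3 replicate 1 (adjusted p = 0.0236). Set 3 against set 2 gave -0.38 (SE 0.08, adjusted p = 0.000147).

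**Figure D3:**
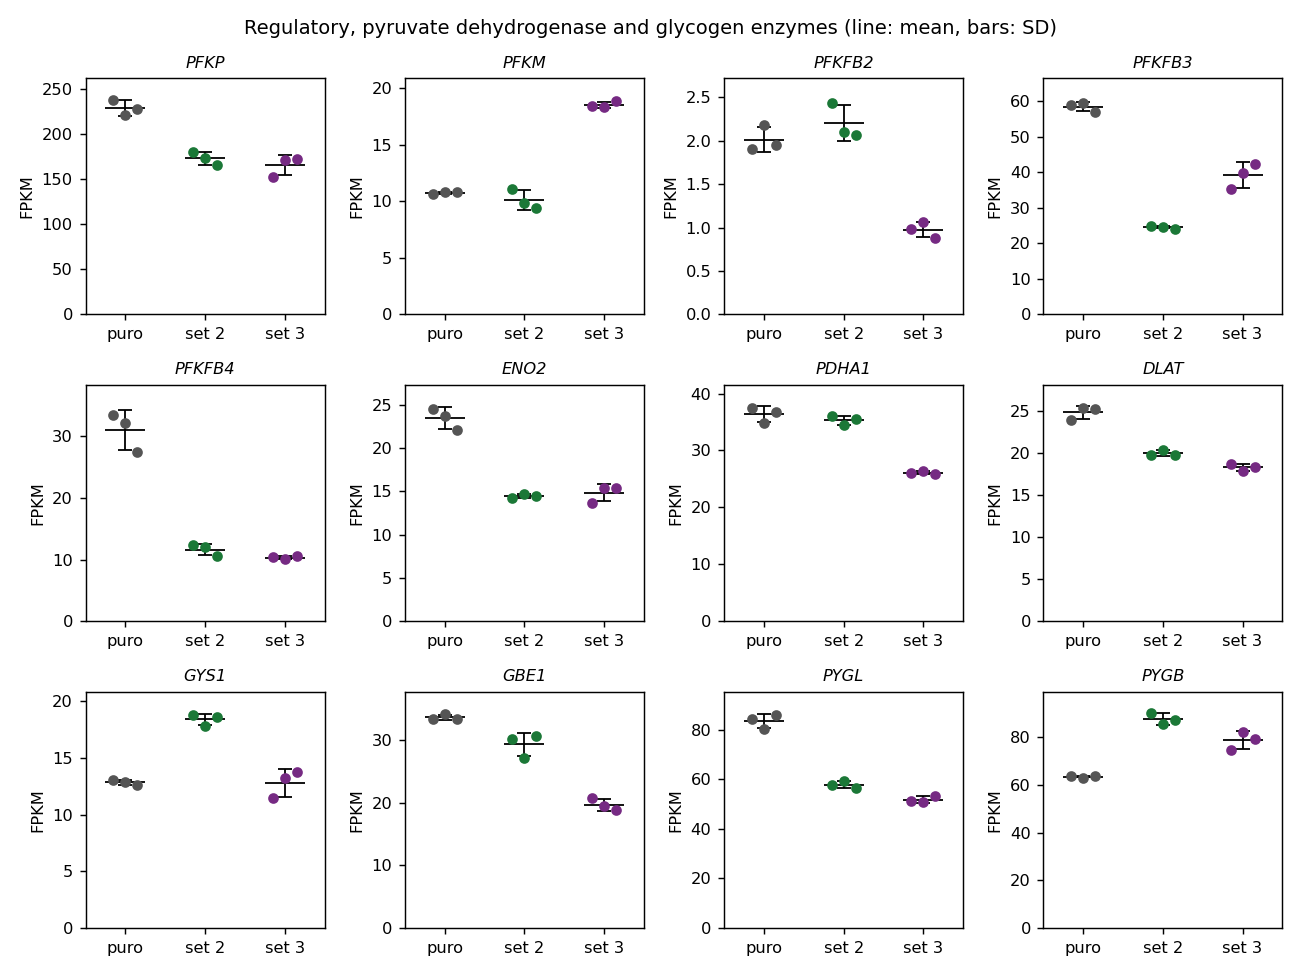
FPKM (y axis, from 0) of 12 regulatory, pyruvate dehydrogenase and glycogen enzymes in puro, set 2 and set 3 (x axis), with a point for each column, a line at the mean and bars of 1 SD (n = 3). PFKFB4, ENO2, DLAT and PYGL are below puro and PYGB is above puro in both sets, while PFKM, PFKFB2 and PDHA1 differ mainly in set 3 and GYS1 in set 2.

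**Figure D4:**
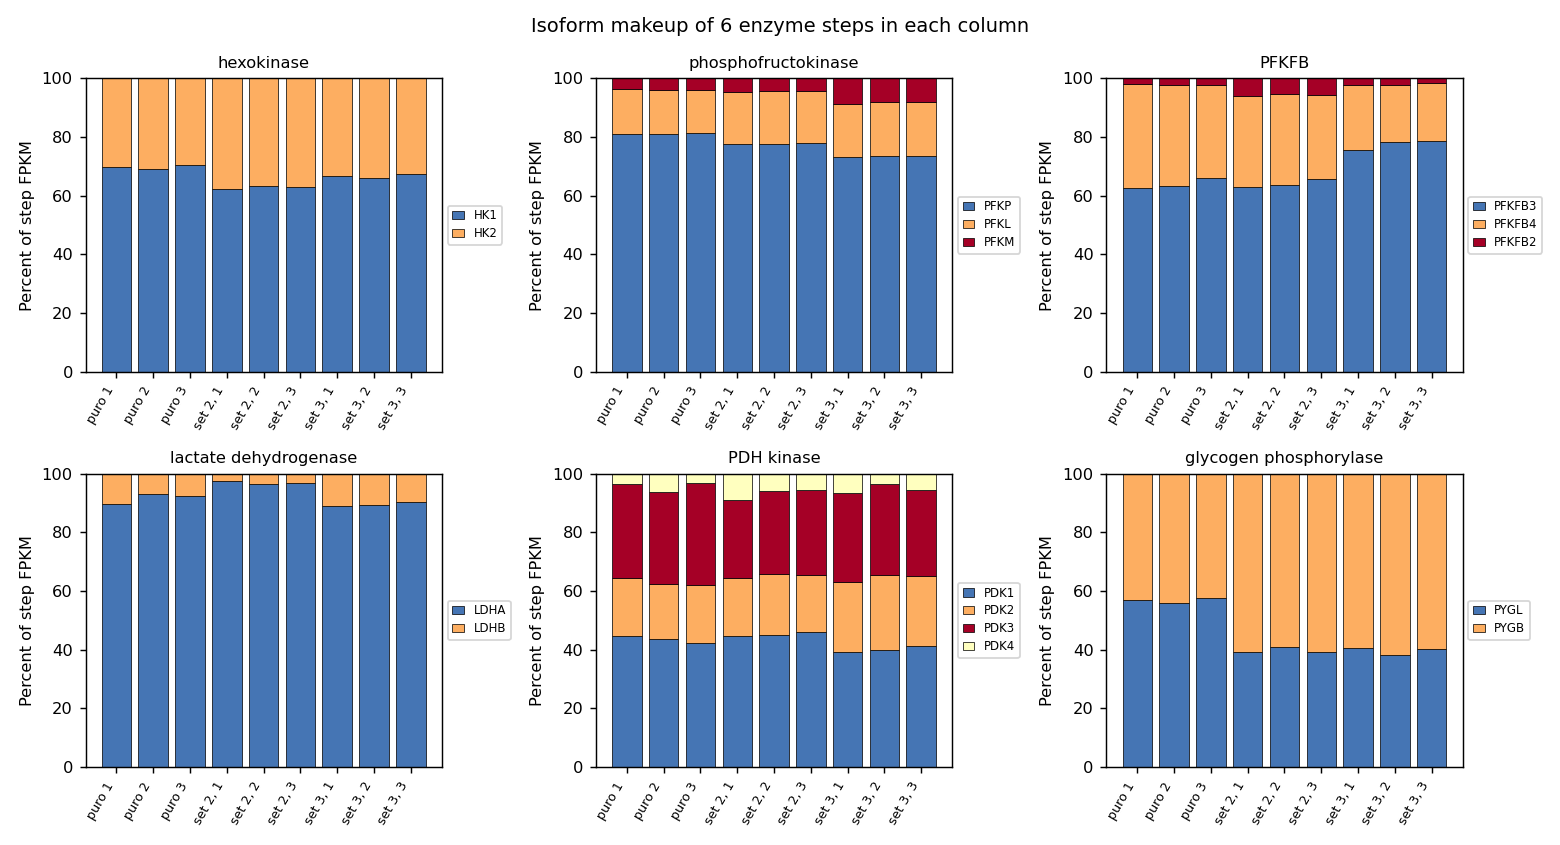
Share of each isoform in the FPKM summed over the isoforms shown (y axis, percent) in each of the 9 columns (x axis) for hexokinase, phosphofructokinase, PFKFB, lactate dehydrogenase, PDH kinase and glycogen phosphorylase. PYGL supplies 56.8% in puro, 39.8% in set 2 and 39.7% in set 3. PFKM supplies 3.81% in puro and 8.26% in set 3, and LDHB 8.28% in puro and 3.02% in set 2. The PDH kinase shares depend on the gene lengths behind FPKM.

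Other genes of the pathway gave a mixed picture. Of 27 further glycolysis and pyruvate genes, 17 were tested, and 8 were higher and 5 lower in set 2, while 6 were higher and 3 lower in set 3. Those are 47.1% higher and 29.4% lower in set 2, where 30.0% and 29.9% of all genes were called, and 35.3% and 17.6% in set 3, against 28.0% and 27.6%. MPC1, a subunit of the mitochondrial pyruvate carrier, rose by log2 1.27 in set 2 (SE 0.11, adjusted p = 2.09e-10) and by 0.83 in set 3 (SE 0.11, adjusted p = 6.94e-07). BPGM, which makes 2,3-bisphosphoglycerate, rose by 0.88 (adjusted p = 7.48e-09) and 0.74 (adjusted p = 2.07e-07). ADPGK, an ADP-dependent glucokinase, had changes of opposite sign, -0.49 in set 2 (adjusted p = 5.69e-07) and 0.38 in set 3 (adjusted p = 2.42e-05). PDHX, a structural subunit of the pyruvate dehydrogenase complex, fell by 0.36 (adjusted p = 6.97e-05) and 1.04 (adjusted p = 1.64e-12). HKDC1, a further hexokinase, fell by 0.34 (adjusted p = 0.000389) and 0.31 (adjusted p = 0.00136).

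Of 22 further glycogen genes, 20 were tested, with 7 higher and 5 lower in set 2, and 2 higher and 5 lower in set 3. The shares were 35% and 25% in set 2, against 30.0% and 29.9% of all genes, and 10% and 25% in set 3, against 28.0% and 27.6%. GYG1, the protein primer of glycogen, rose by log2 1.52 in set 2 (SE 0.08, adjusted p = 2.63e-15) and by 1.21 in set 3 (SE 0.08, adjusted p = 3.03e-13). PPP1R3B, which targets protein phosphatase 1 to glycogen, fell by 0.59 (adjusted p = 2.71e-05) and 1.40 (adjusted p = 2.43e-11). GSK3B, a kinase that inhibits glycogen synthase, rose by 0.46 in set 2 (adjusted p = 2.76e-06) and stood at -0.16 in set 3 (adjusted p = 0.0648). PHKA1, a regulatory subunit of phosphorylase kinase, fell by 0.37 (adjusted p = 4.13e-05) and 0.32 (adjusted p = 0.000304). PGM2 and PGM2L1 are relatives of phosphoglucomutase. PGM2 rose by 0.33 (adjusted p = 0.000142) and 0.32 (adjusted p = 0.000243), whereas PGM2L1, which makes glucose-1,6-bisphosphate, rose by 0.54 in set 2 (adjusted p = 9.77e-06) and fell by 1.32 in set 3 (adjusted p = 4.11e-12).

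The pentose phosphate pathway branches off at glucose-6-phosphate, and 7 of its 8 listed genes were tested, with 3 higher and 4 lower in set 2, and 3 higher and 1 lower in set 3. With 7 genes these shares are coarse, at 42.9% and 57.1% in set 2, against 30.0% and 29.9% of all genes, and 42.9% and 14.3% in set 3, against 28.0% and 27.6%. PGLS, a lactonase of the pathway, rose by 0.74 in set 2 (adjusted p = 8.89e-08) and stood at -0.00 in set 3 (adjusted p = 0.978). PGD, the second dehydrogenase, fell by 0.50 (adjusted p = 1.45e-07) and 0.19 (adjusted p = 0.0129). RPIA, the ribose-5-phosphate isomerase, fell by 0.69 in set 2 (adjusted p = 2.62e-09) and rose by 0.29 in set 3 (adjusted p = 0.000833).

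The labels hold only the groups puro and shIGF2BP2, so the 2 columns of each shIGF2BP2 sample were also summed and 3 samples compared with 3. This sum rests on reading the last number of the column name as the replicate. In that comparison 24 of the 35 tested enzymes were lower and 3 higher, or 68.6% and 8.57%, where 29.2% of 13518 genes were called lower and 28.8% higher. The 3 higher were PFKM, GYS1 and PYGB. PFKFB4 had the lowest value, at log2 -1.55 (SE 0.07, adjusted p = 2.88e-13), followed by ALDOC at -0.99 (SE 0.33, adjusted p = 0.015), PFKFB3 at -0.91 (SE 0.05, adjusted p = 1.55e-11) and PGAM1 at -0.79 (SE 0.05, adjusted p = 8.55e-11). For GAPDH the summed value of -0.40 (SE 0.04, adjusted p = 1.63e-07) stands for set values of -1.30 and 0.18, and for LDHB -0.39 (SE 0.10, adjusted p = 0.00249) stands for -1.86 and 0.36. PFKL was at -0.12 (adjusted p = 0.0656), and at -0.14 without puro replicate 2 (adjusted p = 0.0338). Each sum joins a set 2 and a set 3 column, so these SEs and p-values leave out the spread between the sets. With each set taken as a single sample, edgeR gave -0.38 for GAPDH (adjusted p = 0.566). It gave -0.36 for LDHB (adjusted p = 0.719) and -0.77 for PGAM1 (adjusted p = 0.348). In that fit the adjusted p was 0.062 for PFKFB3 and 0.25 for ALDOC, while PFKFB4 was still called.

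Some of the summed calls rested on single samples. The ALDOC call was lost without puro replicate 1 (adjusted p = 0.0734), puro replicate 3 (0.0586), shIGF2BP2 replicate 1 (0.0704) or shIGF2BP2 replicate 3 (0.0589). PDK3, at -0.19 (adjusted p = 0.0417), lost its call without puro replicate 3 (log2 -0.11, adjusted p = 0.252) or any of shIGF2BP2 replicates 1, 2 and 3 (adjusted p = 0.081, 0.0886 and 0.128). PCK2, at -0.22 (adjusted p = 0.00825), lost it without shIGF2BP2 replicate 2 (adjusted p = 0.0593). If the first number of the column names is read as the sample instead, there are 2 shIGF2BP2 samples. In that case edgeR called 4 of the enzymes lower, PFKP, PFKFB4, ENO2 and PYGL. It called 0 higher, with 1 higher at an unadjusted p under 0.05. Far fewer of all genes were called on that reading too, and their numbers are given in the last section. No other tool was run on that reading.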

How the data were processed

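Gene counts and FPKM were deposited as tables of 20020 genes and 9 columns. Per the submitters' processing notes, reads were handled with fastp 0.23.2, STAR 2.7.10a and featureCounts on hg38, and DESeq2 is named there too. The annotation release, the strand setting, the treatment of reads that match several places and the steps behind FPKM are unknown here, since no label or header states them. The counts are raw whole numbers per gene, per the values the authors deposited. FPKM is a deposited value per length and library size.

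The last number of each column name was matched to the replicate number in the sample labels. Columns of the 3 arms were fitted together in edgeR 4.0.16 (R 4.3.3) with filterByExpr, TMM scaling and the quasi-likelihood test, Benjamini-Hochberg adjusted over all 13346 genes kept. In a further fit, the 2 columns of each shIGF2BP2 sample were summed (13518 genes kept). Step totals and isoform shares were taken from FPKM and compared by two-sided exact permutation of columns. Precision rests on 3 columns per arm and on the counts per gene. The scripts were tested on simulated counts in which a small part of the genes was changed, in a single arm. That test does not cover data in which most genes are called, as in these comparisons.

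Alternatives used DESeq2 1.42.0, limma 3.58.1 with voom or on log2(FPKM + 1) and log2(FPKM + 0.1), other scalings and filters, a replicate block, a minimum fold, single columns left out and the loess removal of a gene length trend, which was chosen after seeing the data. Overlapping genes and pseudogenes came from GENCODE 29, and promoters from RefSeq, GRCh38.p14. Columns with the same replicate number in different arms had deviations from the arm means that correlated at -0.333 to 0.113.

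All 36 enzymes were named. Values per column were given for those past the threshold with an absolute log2 change of at least 0.5 in a set against puro, for the most abundant of each step, and for PGK1, PDHA1, DLAT, PYGB, GYS1 and UGP2, which were added after their values were seen. From each list of other pathway genes, up to 2 rising and 2 falling genes with the smallest adjusted p in each set were named. A gene that this rule also picks from the pentose phosphate list is not reported here. The enzymes and the lists were chosen with earlier results of these data known.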

Additional observations from a re-analysis of the deposited data

Results flagged for a closer look

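For 19 of the 35 tested enzymes the effect differed between the sets, by a test of the difference itself: edgeR's quasi-likelihood test of set 3 against set 2, Benjamini-Hochberg adjusted over all genes tested. Of the 35, 37.1% were higher and 17.1% lower in set 3, where 29.8% and 30.8% of all genes were, so the number of enzymes called is no result about the enzymes. The log2 difference, set 3 minus set 2, was 0.35 for HK1, 1.27 for GPI, 0.19 for PFKL, 1.00 for PFKM, -1.05 for PFKFB2 and 0.80 for PFKFB3. In lower glycolysis it was 0.82 for TPI1, 1.48 for GAPDH, 1.87 for PGAM1, 0.96 for ENO1, 0.32 for LDHA and 2.21 for LDHB. Around pyruvate dehydrogenase it was -0.25 for PDK1, -0.31 for PDHA1, 0.18 for PDHB and 0.53 for PDP1, and among the glycogen enzymes -0.38 for UGP2, -0.40 for GYS1 and -0.45 for GBE1. IGF2BP2 itself differed by 0.49 (SE 0.08, adjusted p = 3.19e-06), lower in set 2, and the part of that difference in these results was not tested. Arms of 3 columns are too small for the test of a single outlying column.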

How the results depend on the processing

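No called enzyme changed sign under the 17 to 21 alternatives tried for each of 140 enzyme results, and 63 results had the same call in all of them. With a minimum absolute log2 change of 0.5, genes called higher and lower numbered 2201 and 1994 in set 2, 1729 and 1966 in set 3, 1993 and 2292 between sets, and 1697 and 1523 with sets summed. Enzymes called higher and lower were then 0 and 12 in set 2, 1 and 7 in set 3, and 0 and 8 with sets summed, and 9 and 1 in set 3 against set 2. On log2(FPKM + 1), limma gave a median enzyme change in set 2 of -0.16, 2 enzymes higher in set 3, 11 lower in set 3 against set 2 and a median there of -0.026, with the sign reversed. On log2(FPKM + 0.1) these were -0.20, 3, 11 and -0.027. The median of all genes between the sets was -0.08 and -0.14 on these scales, so the enzymes stood 0.058 and 0.11 above it. Leaving out single columns gave 3 to 6 enzymes higher in set 3. The all-gene counts of the limma and left-out fits are not given here, so these enzyme counts are no result about the enzymes. Reading the first number of the column names as the sample left 715 genes higher and 570 lower, with 0 and 4 enzymes. The replicate block was for numbers that did not pair the columns, since 0 columns correlated best with their own number. It gave 24, 16 and 18 enzymes called in the 3 comparisons, in place of 25, 18 and 19, and 26 in place of 27 with sets summed. Over all genes the block gave 7538, 6942 and 7636 called, in place of 7989, 7425 and 8097. With sets summed it gave 7302 in place of 7842. Removing a trend with gene length gave median changes of -0.33 in set 2 and -0.07 in set 3. Low counts limit ALDOC, PDK4 and FBP1.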
